A study of Mus musculus with 4 samples.

Results

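The genes described here are 9 regulators of the luminal mammary lineage: the transcription factor genes Gata3, Ehf, Elf3, Elf5, Foxa1, Grhl2 and Ovol1 and the hormone receptor genes Esr1 and Pgr. They were chosen by symbol, and all 9 have a row among the 50600 genes of the deposited table. The samples were 2 libraries of Py8119 cells overexpressing Mtss1 and 2 control libraries, named hygro in the titles. Both groups are the same C57BL/6 mouse mammary tumour line, described in the labels as mesenchymal-like, grown in IMDM with serum and given no treatment. Mtss1 encodes a scaffold protein that binds actin and membranes, and the title of the series concerns mammary tumour-initiating cells and the p65 protein. The labels name the overexpression genotype without its promoter or vector, and nothing states that replicate libraries were grown separately. The p-values therefore reflect the spread among these libraries alone, which may be technical.

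The luminal lineage forms the inner cell layer of the mammary ducts and alveoli. GATA3, FOXA1 and the oestrogen receptor (ESR1) act together in hormone-sensing luminal cells, and the progesterone receptor gene (Pgr) is itself a target of the oestrogen receptor. ELF5 directs alveolar progenitors toward milk-producing cells, and EHF and ELF3 are related ETS factors of epithelial cells. GRHL2 and OVOL1 maintain the epithelial state, in part by opposing the EMT factors of the ZEB family. Mesenchymal tumour lines usually lack much of this set.

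Values are CPM, read counts scaled to 1000000. In every library the values are multiples of the CPM of a small fraction of a read, which gave recovered totals of 15594209 and 16656638 reads for overexpression 1 and 2, and of 20617788 and 22081639 reads for control 1 and 2. For the 9 genes, all 23 values above 0, of 36, came out as whole reads within 0.02 read. A gene at or under 3 reads in every library (0.138 to 0.189 CPM) is called undetected. Genes that reached 1 CPM in 2 or more libraries were tested with limma on log2(CPM + 1) with Benjamini-Hochberg adjustment over 12510 genes. Of those, 66.1% passed an adjusted p of 0.05, 31.9% higher and 34.2% lower with overexpression, and the groups did not overlap for 81.6%. Mtss1 itself had 118 and 119 CPM in the overexpression libraries, against 54.5 and 50.5 CPM in the control libraries.

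The 9 genes divided by level into 4 that were tested, 2 with trace reads and 3 that were undetected, 2 of these at 0. Of all 50600 genes, noncoding ones included, 22310 had a value above 0 and 12510 were tested. By these counts the 9 genes were not detected less often than the whole set. Gata3 and Ehf were clearly higher with Mtss1 overexpression, Grhl2 was slightly higher at a low level, and Esr1 was present in both groups and did not pass the test. Foxa1 and Elf3 gave a few reads. Elf5, Pgr and Ovol1 were undetected in all 4 libraries.

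**Figure D1:**
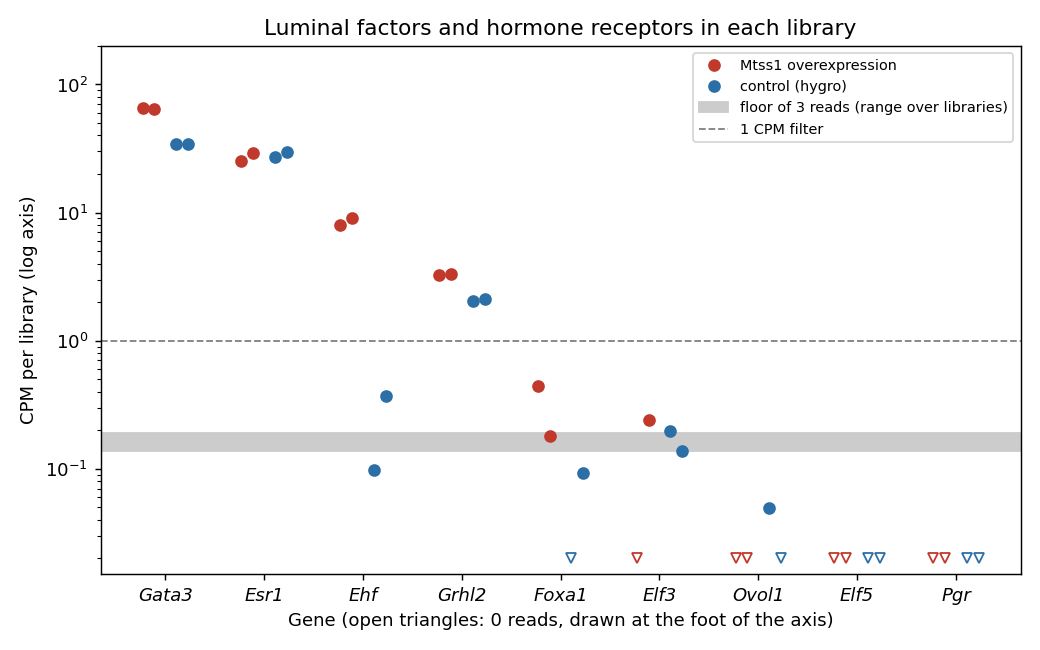
CPM of each of the 9 genes in every library on a log axis, with Mtss1 overexpression left of control for each gene and open triangles at the foot of the axis for 0 reads. Gata3 lies at 65.4 and 64.7 CPM with overexpression against 34.2 and 34.0 CPM in control, Ehf lies above 1 CPM only in the overexpression libraries, and Elf5 and Pgr lie at 0 in all 4.

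RefSeq promoter windows, from 250 bases before to 50 bases after an annotated start in GRCm38.p6, were found for 6 of the 9 genes, in 8 windows. They are shown for 2 tested genes, Gata3 and Esr1, and for Foxa1 and Elf5, which lay under the filter, because the letters CAGGTG or CACCTG, the E-box that ZEB and SNAIL factors bind, were present in the windows of Foxa1 and Elf5 and not in those of Gata3 and Esr1. Capitals mark these letters, read on both strands, and each line runs 5′ to 3′ along the gene's strand. The coordinates are chr2:9878551-9878850 (minus strand) for Gata3, chr10:4611739-4612038 (plus) for Esr1, chr12:57546062-57546361 (minus) for Foxa1 and chr2:103411848-103412147 (plus) for Elf5.
Gata3: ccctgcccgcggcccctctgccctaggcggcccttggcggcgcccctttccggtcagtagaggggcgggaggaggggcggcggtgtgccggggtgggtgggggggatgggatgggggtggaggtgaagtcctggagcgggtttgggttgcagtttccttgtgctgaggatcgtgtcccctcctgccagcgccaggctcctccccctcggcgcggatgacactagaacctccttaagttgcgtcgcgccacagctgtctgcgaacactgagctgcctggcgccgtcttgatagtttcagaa
Esr1: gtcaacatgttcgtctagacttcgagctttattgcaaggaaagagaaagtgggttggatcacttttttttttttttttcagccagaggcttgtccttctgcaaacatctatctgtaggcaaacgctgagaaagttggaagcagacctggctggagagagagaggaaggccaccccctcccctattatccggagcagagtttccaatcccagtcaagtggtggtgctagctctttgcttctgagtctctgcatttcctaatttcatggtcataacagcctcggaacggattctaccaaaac
Foxa1: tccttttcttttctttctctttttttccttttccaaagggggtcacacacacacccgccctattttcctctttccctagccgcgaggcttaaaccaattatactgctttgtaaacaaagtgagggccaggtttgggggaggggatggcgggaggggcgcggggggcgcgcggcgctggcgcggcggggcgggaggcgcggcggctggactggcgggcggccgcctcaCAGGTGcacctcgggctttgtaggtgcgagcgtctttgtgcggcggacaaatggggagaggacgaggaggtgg
Elf5: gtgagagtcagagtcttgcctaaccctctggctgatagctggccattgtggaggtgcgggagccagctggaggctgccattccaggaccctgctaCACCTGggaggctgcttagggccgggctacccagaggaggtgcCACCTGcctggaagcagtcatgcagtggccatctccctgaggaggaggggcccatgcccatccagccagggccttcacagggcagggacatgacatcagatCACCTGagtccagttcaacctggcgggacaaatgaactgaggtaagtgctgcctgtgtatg
The Elf5 window shown held 3 E-boxes, beginning at positions -155, -112 and -11 from the start site, its other window held 1, at 21 bases past its start, and the Foxa1 window held 1, at -23. Elf3 and Pgr had 1 each, at -140 and -130. Every window of the 4 matched genes under the filter thus held an E-box, and no window of the 2 matched tested genes did. Of all 32817 promoter windows, 20.2% hold one. Ehf and Grhl2, which were tested, and Ovol1 had no window, so this split leaves them out. The split rests on 6 genes, too few for a conclusion, and the windows shown were picked by it. Whether E-boxes bear on the levels was not tested. Foxa1 had 26 CpG dinucleotides, Gata3 22, Elf3 12 and Pgr 6, the windows of Esr1 had 6 and 12 and those of Elf5 3 and 10, with a median of 7 over all windows. Of the forms of the motif that GATA factors bind, only AGATAA was searched for. It was found on neither strand of any of the 8 windows and is present in 11.2% of all windows. The palindromic oestrogen response element, GGTCANNNTGACC, was likewise not found and is present in 0.0701% of all. These are matches of letters in short windows, and binding was not measured.

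Ehf, an ETS factor of epithelial cells, had 7.94 and 9.11 CPM in overexpression 1 and 2, against 0.0980 and 0.368 CPM in control 1 and 2. In reads these values are 126 and 153 with overexpression, against 2 and 8 in control. Both overexpression libraries lay far above both controls, and control 1 was itself under the floor of 3 reads. The mean was 8.52 ± 0.823 CPM with overexpression and 0.233 ± 0.191 CPM in control (SD, n = 2 each), and the log2 fold change was 2.96 ± 0.18 (SE, limma adjusted p = 1.7e-12). Ehf passed the filter through the overexpression libraries alone, so a difference in that direction was built into its selection for the test. In a fit without the filter, where 35.4% of 22310 genes passed, it had 2.96 ± 0.20 (SE, limma adjusted p = 1.7e-04). The size depends on how the low control is treated: the log2 fold change was 5.27 with limma-voom on the recovered reads, 4.82 with a pseudocount of 0.1 and 1.37 with a pseudocount of 5. Summed over libraries, the ratio of scaled reads was 36.0, with an exact 95% interval of 19.3 to 75.9 that covers counting error only. Without overexpression 1 or without overexpression 2 the gene reached 1 CPM in too few libraries to be tested.

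Ehf (ENSMUSG00000012350) spans 103263433 to 103303278 of chromosome 2 on the minus strand (mm10, GENCODE M21), and its nearest protein-coding neighbour beyond its start is Elf5, 108.4 kb away. Of 11 annotated genes from Apip to Cat, 8 were listed at 0 in all 4 libraries, among them Elf5 and the nearest annotated gene on each side, the pseudogene Gm13873 and the long noncoding RNA gene A930006I01Rik. Apip, an enzyme gene of methionine salvage, had 8.26 and 7.44 CPM with overexpression against 9.55 and 8.84 CPM in control, and did not pass the test (log2 fold change -0.20 ± 0.13 SE, limma adjusted p = 0.16). Cat, the catalase gene beyond Elf5, had 52.7 and 52.9 CPM with overexpression against 40.6 and 39.3 CPM in control (0.39 ± 0.06 SE, limma adjusted p = 4.9e-06). Apart from Gm13873 and A930006I01Rik, these neighbours were chosen after their values were seen.

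**Figure D2:**
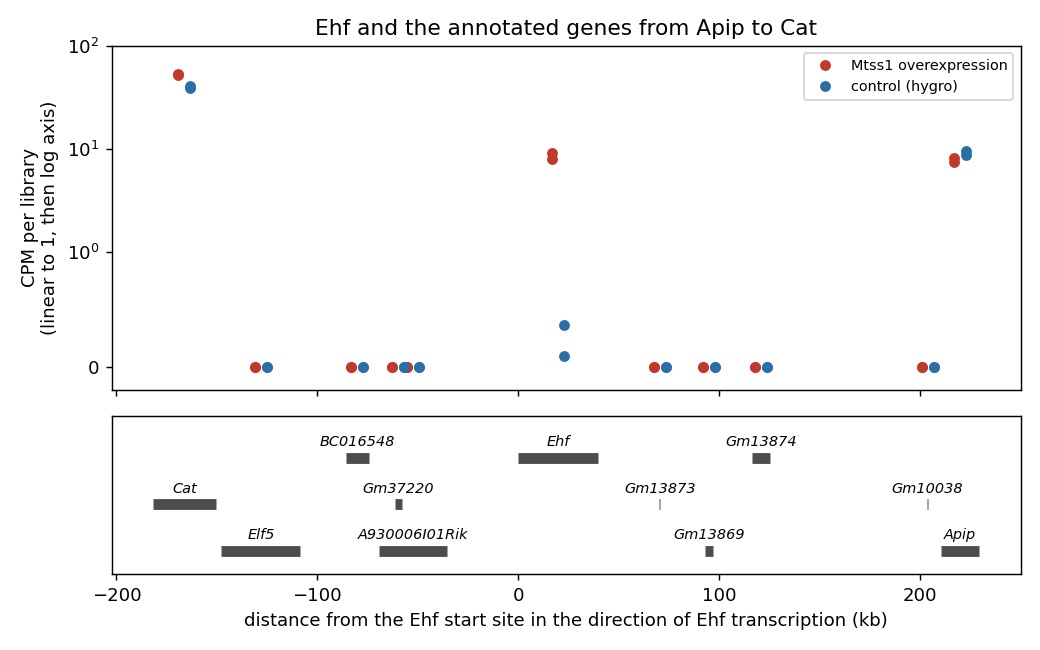
CPM per library (top, linear to 1 and then a log axis) and gene positions (bottom) by distance from the Ehf start site in kb, with Mtss1 overexpression points left of control points. Ehf lies at 7.94 and 9.11 CPM with overexpression and under 1 CPM in control, while Elf5 and the noncoding genes around it lie at 0.

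Gata3, the zinc finger factor that specifies and maintains luminal cells, was the most abundant of the 9 genes. It had 65.4 and 64.7 CPM with overexpression, against 34.2 and 34.0 CPM in control. The libraries of each group nearly coincided and the groups did not overlap. The mean was 65.1 ± 0.518 CPM with overexpression and 34.1 ± 0.163 CPM in control (SD, n = 2 each), a 1.91-fold ratio, with a log2 fold change of 0.91 ± 0.06 (SE, limma adjusted p = 6e-12). The log2 fold change stayed between 0.84 and 0.95 over 13 alternative settings and passed the test in each. The size of the limma adjusted p depended strongly on the setting: 5.3e-05 without the filter and 7.9e-44 with the replicate block. By absolute log2 fold change Gata3 ranked 1242 of 12510 tested genes. Ehf ranked 58, but Ehf entered the tested set through the overexpression libraries alone and its value depends on the pseudocount. Gata3 (ENSMUSG00000015619) spans 9857078 to 9890034 of chromosome 2 on the minus strand. Of the annotated genes that overlap it, 4930412O13Rik reached at most 1.26 CPM and 9230102O04Rik at most 0.750 CPM, and the antisense gene Gm13256 was listed at 0. The nearest annotated genes that do not overlap it, Gm37866 and Gm13262, gave no more than 0.126 CPM in any library.

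Grhl2, a grainyhead factor that keeps epithelial junction genes on, had 3.28 and 3.33 CPM with overexpression, against 2.06 and 2.12 CPM in control. These are 52 and 56 reads with overexpression and 42 and 46 reads in control, and the groups did not overlap. The mean was 3.31 ± 0.0391 CPM with overexpression and 2.09 ± 0.0421 CPM in control (SD, n = 2 each), with a log2 fold change of 0.48 ± 0.17 (SE, limma adjusted p = 0.014). The call did not hold when any 1 library was left out: the adjusted p was 0.052 without overexpression 1, 0.061 without overexpression 2, 0.071 without control 1 and 0.053 without control 2. It was also lost without the filter (adjusted p = 0.074). With a pseudocount of 5 the log2 fold change was 0.23. Grhl2 (ENSMUSG00000022286) spans 37233036 to 37363569 of chromosome 15 on the plus strand, and 3 annotated genes that overlap it were listed at 0. Of its nearest annotated neighbours, Gm26766 was listed at 0, and Ncald, a calcium sensor gene 2.61 kb past its end, went the other way with 0.860 and 0.595 CPM with overexpression against 3.67 and 2.72 CPM in control (log2 fold change -1.27 ± 0.19 SE, limma adjusted p = 3.7e-06). Ncald passed the filter through the control libraries alone, so a difference was built into its selection.

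Esr1, the oestrogen receptor alpha gene, was present in both groups and did not pass the test. It had 25.2 and 29.1 CPM with overexpression, against 27.3 and 29.5 CPM in control. The groups overlapped, and overexpression 1 was the lowest of the 4. The mean was 27.2 ± 2.75 CPM with overexpression and 28.4 ± 1.56 CPM in control (SD, n = 2 each). The log2 fold change was -0.07 ± 0.08 (SE, limma adjusted p = 0.50), with a 95% interval of -0.24 to 0.10, or 0.848-fold to 1.08-fold on the same log2(CPM + 1) scale. Without overexpression 1 the log2 fold change was 0.033. Esr1 (ENSMUSG00000019768) spans 4611593 to 5005614 of chromosome 10 on the plus strand, and the table gives 1 value per gene, so the part of the transcript that the reads cover was not analysed here.

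The exons of these genes differ in length, from 2.217 kb for Elf3 to 13.661 kb for Esr1, so levels were compared between genes per kilobase of the union of annotated exons. On that scale Gata3 had 16.4 ± 0.130 CPM per kb with overexpression and 8.58 ± 0.0411 CPM per kb in control. Esr1 followed at 1.99 ± 0.201 CPM per kb with overexpression and 2.08 ± 0.114 CPM per kb in control (SD, n = 2 each). Ehf stood at 1.53 ± 0.148 CPM per kb with overexpression, where its higher library, 1.63, was under the lower Esr1 library, 1.85. In control Ehf stood at 0.0418 ± 0.0343 CPM per kb, below Grhl2 at 0.242 ± 0.00489. With overexpression Grhl2 was at 0.384 ± 0.00454 CPM per kb. Ehf thus passed Grhl2 in order between the groups. Foxa1 and Elf3, at 0.0931 ± 0.0558 and 0.0537 ± 0.0759 CPM per kb with overexpression, did not differ beyond their spread.

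Foxa1, the pioneer factor that opens chromatin for the oestrogen receptor, had 0.441 and 0.179 CPM with overexpression, against 0 and 0.0920 CPM in control. In reads this was 7 and 3 with overexpression, against 0 and 2 in control, so 1 of 4 libraries exceeded the floor. The ratio of scaled reads was 6.45, with an exact 95% interval of 1.37 to 60.5 for counting error only. In a fit without the filter, where 35.4% of 22310 genes passed, Foxa1 had a log2 fold change of 0.32 ± 0.11 (SE), not past the threshold (limma adjusted p = 0.080). Elf3, an ETS factor of epithelial cells, had 0 and 0.238 CPM with overexpression, against 0.196 and 0.138 CPM in control. These are 0 and 4 reads with overexpression and 4 and 3 reads in control, and the groups overlapped. The antisense gene Gm26642, which overlaps Elf3 and reached 2.24 CPM, was higher than Elf3, and no source used here says whether reads were counted by strand.

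Elf5 and Pgr were listed at 0 in all 4 libraries, which allows a level of up to 0.189 and 0.179 CPM in overexpression 1 and 2, and up to 0.147 and 0.138 CPM in control 1 and 2 (3 reads per library, counting error only). Ovol1, a zinc finger repressor of EMT genes, was at 0 with overexpression and had 1 read, in control 1. With 10 reads as the floor, chosen after the data were seen, 5 genes were undetected, Foxa1 and Elf3 among them.

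Paralogs of the 9 genes moved in both directions. Of 19, 6 were tested, of which 1 rose, 3 fell and 2 did not pass (median log2 fold change -0.09, against -0.01 over all tested genes). For comparison, 31.9% of all tested genes rose and 34.2% fell. Gata4, a GATA factor known from heart and endoderm, had 4.60 and 5.36 CPM with overexpression, against 15.3 and 13.9 CPM in control (log2 fold change -1.38 ± 0.13 SE, limma adjusted p = 2.3e-09). Gata6, a close relative of Gata4, had 42.3 and 36.6 CPM with overexpression, against 29.5 and 30.3 CPM in control (0.38 ± 0.07 SE, adjusted p = 1.1e-04). Gata4 thus fell where Gata3 and Gata6 rose. The ETS genes Elf2 (-0.36 ± 0.05) and Elf1 (-0.19 ± 0.05 SE) fell. Without overexpression 2 the number that rose was 2. Foxa2, Grhl3, Ovol2 and Gata5 were listed at 0 in all libraries.

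Other luminal lineage factors were mostly lower. Of 20, 15 were tested, with 2 higher, 10 lower and 3 not past the test, and a median log2 fold change of -0.32. The shares over all tested genes were 31.9% higher and 34.2% lower. Stat5a, the prolactin-activated factor of alveolar development, had 19.0 and 21.4 CPM with overexpression, against 37.6 and 39.4 CPM in control (log2 fold change -0.90 ± 0.08 SE, limma adjusted p = 1.4e-09). Msx2 (-0.94 ± 0.11), Sox9, a factor of luminal progenitors (-0.92 ± 0.05), and Tbx3, a T-box factor of mammary development (-0.71 ± 0.10 SE), also fell. The largest rise was in Zfpm1, which encodes FOG1, a cofactor that binds GATA proteins. Zfpm1 had 22.3 and 22.7 CPM with overexpression, against 5.93 and 6.86 CPM in control (1.67 ± 0.11 SE, adjusted p = 1.1e-11). Xbp1, a secretory-pathway factor, rose by less (0.27 ± 0.05 SE).

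Genes for partners of the hormone receptors were all expressed. All 21 were tested, of which 4 rose, 8 fell and 9 did not pass, with a median log2 fold change of -0.03. Among all tested genes 31.9% rose and 34.2% fell. The nuclear receptor coactivator gene Ncoa1 had 19.7 and 19.5 CPM with overexpression, against 7.45 and 8.79 CPM in control (log2 fold change 1.18 ± 0.11 SE, limma adjusted p = 3.8e-09). Ncoa3, a coactivator of the same family, rose by less (0.28 ± 0.06 SE). The histone acetyltransferase gene Ep300 had 141 and 148 CPM with overexpression, against 208 and 226 CPM in control (-0.58 ± 0.04 SE, adjusted p = 6.3e-11). Kmt2d (-0.53 ± 0.05), Tle3 (-0.33 ± 0.06) and Pelp1 (-0.31 ± 0.05 SE) fell. The chaperone genes Fkbp5 (0.12 ± 0.05) and Ptges3 (0.11 ± 0.04 SE) completed the 4 that rose, which became 2 without overexpression 2 or without control 1. Fkbp5 lost its call when any 1 library was left out, and Ptges3 without overexpression 2 or without control 1.

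Genes known to respond to oestrogen or progesterone went both ways, as did all tested genes, of which 31.9% were higher and 34.2% lower. Of 21, 13 were tested, with 5 higher, 6 lower and 2 not past the test, and a median log2 fold change of -0.19. Greb1, a cofactor gene induced by the oestrogen receptor, had 1.51 and 1.84 CPM with overexpression, against 8.18 and 8.88 CPM in control (log2 fold change -1.83 ± 0.15 SE, limma adjusted p = 5.8e-10). Wisp2, also known as an oestrogen-induced gene, had 1.32 and 0.893 CPM with overexpression, against 8.96 and 8.74 CPM in control (-2.23 ± 0.16 SE, adjusted p = 4.8e-11). Between limma-voom on the recovered reads and a pseudocount of 5, the log2 fold change ran from -2.33 to -1.02 for Greb1 and from -2.99 to -1.18 for Wisp2. The insulin-like growth factor binding protein gene Igfbp4 (-0.65 ± 0.03) and the retinoic acid receptor gene Rara (-0.43 ± 0.06 SE) also fell. Irs1, an adaptor of insulin and IGF receptors, had 23.4 and 21.9 CPM with overexpression, against 10.1 and 10.2 CPM in control (1.08 ± 0.10 SE, adjusted p = 2.9e-09). Siah2 (0.34 ± 0.08), Areg (0.27 ± 0.08) and Igf1r (0.19 ± 0.05 SE) rose as well, and without control 2 the number that rose was 3, with Areg among those no longer past the test. Tff3, Tnfsf11 and Calca were listed at 0 in all libraries.

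**Figure D3:**
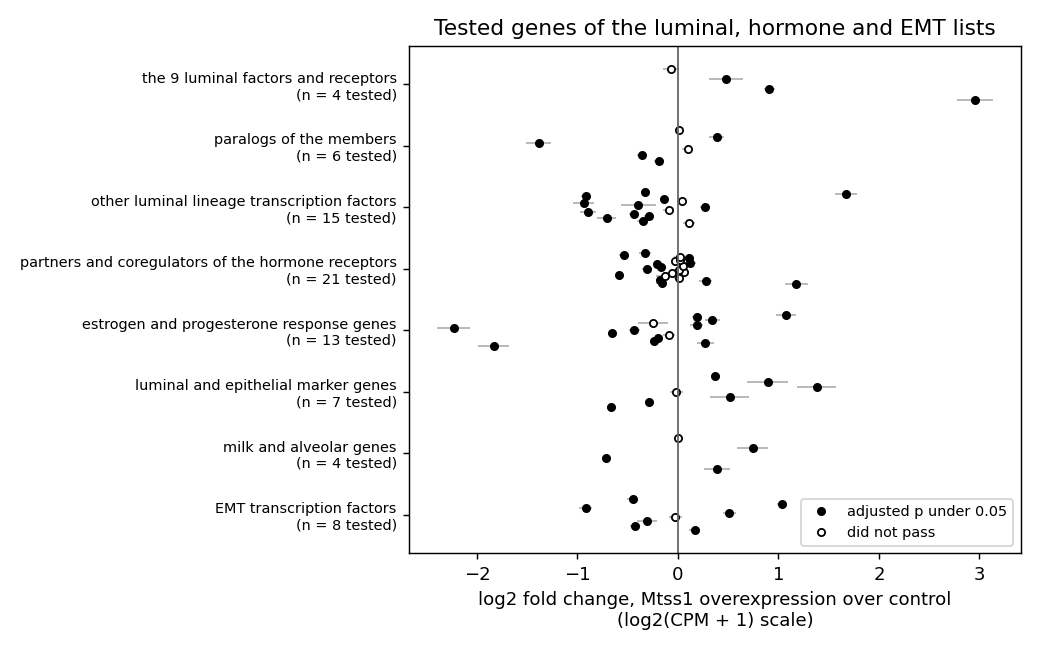
Log2 fold change of Mtss1 overexpression over control, on the log2(CPM + 1) scale, for each tested gene of the 8 lists with at least 4 tested genes. Points are genes, bars are SE, and filled points passed a limma adjusted p of 0.05. Ehf at 2.96 is the point farthest to the right and Wisp2 at -2.23 the farthest to the left.

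Markers of the luminal epithelium ranged from undetected to abundant. Of 30 luminal and epithelial markers, 18 were undetected in all libraries, 6 of these at 0, and 7 were tested. The whole set of 50600 genes, noncoding ones included, had 22310 with a value above 0 and 12510 tested. How many of the whole set lay at or under 3 reads was not counted, so the 18 have no like share beside them. Epcam, Krt19, Cldn7, Mal2 and Ly6d were listed at 0 throughout, and Cdh1 reached at most 0.0920 CPM. Of the 7 tested, 4 rose, 2 fell and 1 did not pass, while 31.9% of all tested genes rose and 34.2% fell. Erbb3, a receptor tyrosine kinase gene of luminal cells, had 6.11 and 4.70 CPM with overexpression, against 0.980 and 2.02 CPM in control (log2 fold change 1.38 ± 0.19 SE, limma adjusted p = 1.5e-06). Jup, the plakoglobin gene (0.89 ± 0.20), Muc1, a luminal mucin gene (0.51 ± 0.19), and Lcn2, the lipocalin 2 gene (0.37 ± 0.05 SE), rose. The luminal keratin genes Krt8 (-0.67 ± 0.04) and Krt18 (-0.28 ± 0.04 SE) fell but were abundant in both groups. Krt8 had 367 and 368 CPM with overexpression, against 562 and 608 CPM in control, and Krt18 had 234 and 235 against 286 and 285 CPM. Lcn2 was abundant too, with 595 and 652 CPM with overexpression against 509 and 453 CPM in control. The number that rose was 2 without overexpression 1 or without overexpression 2. Jup was then under the filter, and Muc1 lost its call without overexpression 1, overexpression 2 or control 1. Jup passed the filter through the overexpression libraries alone, so a difference was built into its selection for the test. Between a pseudocount of 5 and limma-voom on the recovered reads, the log2 fold change ran from 0.31 to 1.80 for Jup, from 0.18 to 0.96 for Muc1 and from 0.68 to 1.89 for Erbb3.

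Of 10 milk and alveolar genes, which ELF5 and STAT5 are known to control, 5 were undetected, all at 0, and 4 were tested. For comparison, 22310 of all 50600 genes had a value above 0, so genes at 0 were common in the whole set as well. Of the 4 tested, 2 rose, 1 fell and 1 did not pass, while 31.9% of all tested genes rose and 34.2% fell. Csn1s1, Csn2, Wap, Lalba and Olah were listed at 0 in all libraries. Btn1a1, the butyrophilin gene of milk fat secretion, had 5.04 and 5.77 CPM with overexpression, against 2.79 and 2.85 CPM in control (log2 fold change 0.74 ± 0.15 SE, limma adjusted p = 2.1e-04), and its log2 fold change ran from 0.41 to 0.93 over the alternatives. Csn3, the kappa-casein gene, rose (0.39 ± 0.13 SE), but not without overexpression 2 or without control 2, which left 1 gene that rose. Xdh, the xanthine dehydrogenase gene, fell (-0.72 ± 0.03 SE), and Mfge8 did not pass.

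All 8 EMT transcription factor genes were tested, with 3 higher, 4 lower and 1, Snai2, not past the test. Their median log2 fold change was -0.17. Of all tested genes, 31.9% were higher and 34.2% lower. Zeb1, the repressor that GRHL2 opposes, had 70.9 and 67.1 CPM with overexpression, against 61.5 and 61.2 CPM in control (log2 fold change 0.17 ± 0.05 SE, limma adjusted p = 0.0084). Its relative Zeb2 had 56.5 and 55.7 CPM with overexpression, against 76.0 and 75.2 CPM in control (-0.42 ± 0.05 SE, adjusted p = 1.9e-07). Prrx1 (1.03 ± 0.05) and Twist1 (0.51 ± 0.06 SE) rose. Twist2 (-0.92 ± 0.07), Tcf4 (-0.45 ± 0.05) and Snai1 (-0.31 ± 0.10 SE) fell. Zeb1 lost its call without overexpression 1, and Snai1 without overexpression 2 or without control 2.

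Markers of other cells were near 0, with single exceptions, and their part in the results above was not tested. Of 10 basal markers 1 was tested, Mylk, which fell (log2 fold change -1.55 ± 0.13 SE), and Krt5 was at 0. Gata3 is also a T cell factor; of 8 T cell markers, Cd3d, Cd3e, Cd8a and Cd2 were listed at 0, and the summed level was 0.252 and 0.417 CPM with overexpression against 1.81 and 1.33 CPM in control. Lck, a T cell kinase gene, was the only one of them at 1 CPM or more in any library, with 0.252 and 0.238 CPM with overexpression against 1.81 and 1.33 CPM in control. It passed the filter through the control libraries alone, so a difference in that direction was built into its selection. Without control 1 or without control 2 it was under the filter. Its log2 fold change was -1.04 ± 0.20 (SE). Over the alternatives that value ran from -2.51 to -0.32. Of 10 B cell and myeloid markers Cd14 alone was tested and missed the threshold, which it passed only without overexpression 2, and Ms4a1 and Itgam were at 0. The 6 endothelial markers summed to 1.13 and 1.19 CPM with overexpression against 0.490 and 0.368 CPM in control. Of 6 adipocyte markers Fabp4 rose (1.16 ± 0.06 SE, 83.1 and 83.3 CPM with overexpression against 38.6 and 34.9 CPM in control), with Adipoq and Lep at 0. These cells are a single cultured line, and a change in the share of cells with a transcript and a change in RNA per cell cannot be told apart in bulk samples.

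**Figure D4:**
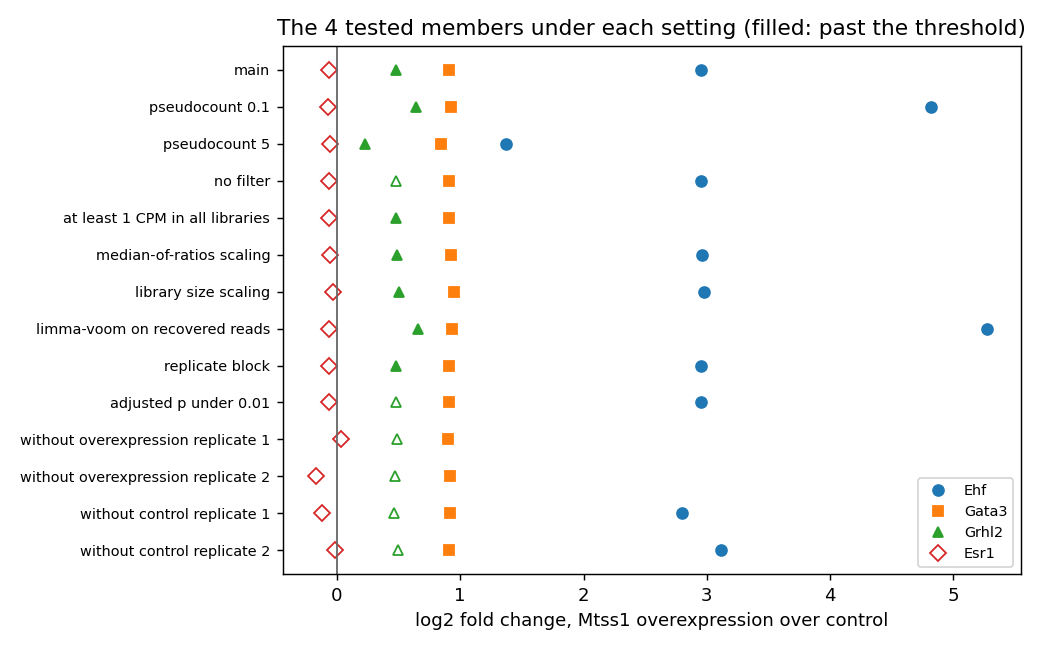
Log2 fold change of the 4 tested genes under the main settings and 13 alternatives, with filled points past the threshold of each setting. Gata3 stays between 0.84 and 0.95, Ehf moves between 1.37 and 5.27 with the treatment of low values, and Grhl2 is unfilled in 6 alternatives.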

How the data were processed

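RNA from 2 Mtss1-overexpressing and 2 control libraries was read from both ends at 150 bases, per the labels' protocols. FastQC 0.11.2, STAR, RSEM and mm10 are named, with no roles, per the submitters' processing notes. The values deposited by the authors were read as CPM from the values themselves, since the columns sum to between 982877 and 1016225. The sources used here do not say how they were scaled. Dividing by the CPM of 1 read gave whole reads within 0.005 read for 79.6% to 80.5% of entries above 0, too few for a count test.

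Limma 3.58.1 in R 4.3.3 was fitted to log2(CPM + 1) with a mean-dependent prior, for genes that reached 1 CPM in 2 or more libraries. Residual degrees of freedom were 2 and the prior added 20.0. The p-values of a gene therefore rest mostly on the spread of other genes of similar level in these libraries. The pseudocount understates changes of low genes. An exact permutation test of 2 against 2 libraries cannot go below p = 0.333 (two-sided), so none was used. The steps were first tested on simulated data with known changes. Replicates differed by 1.77 (overexpression) and 2.03 (control) times the Poisson value in median chi-square, so each library was kept.

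The 9 genes and the 12 other lists, named from general knowledge, were chosen with earlier results of these data known. The naming rule took all 9 genes, up to 4 genes in each direction past the threshold per list, the members at 0, and the nearest annotated genes; some list members that meet it are left out here. Coordinates and exon lengths came from GENCODE M21 (mm10) and promoters from RefSeq (GRCm38.p6). Where rows shared a symbol, the row of highest mean was used. Alternatives were other pseudocounts, filters, scalings and thresholds, limma-voom, a replicate block and leaving out each library.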

Additional observations from a re-analysis of the deposited data

How the results depend on the processing

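Over 13 alternative settings the number of genes higher with overexpression, 3991 in the main analysis, ran from 3317 to 4362, and the number lower, 4282 in the main analysis, from 3621 to 4337. Grhl2 kept a log2 fold change of 0.48 but was not past the threshold without the filter (adjusted p = 0.074) or at an adjusted p of 0.01 (adjusted p = 0.014); with 1 library left out it was 0.47 to 0.49 (adjusted p = 0.052 to 0.071), where fewer samples entered the fit and the lone library of a group was assumed to vary like the others. Esr1, not past the test in any setting, turned to 0.033 without overexpression 1, and ran from -0.17 to 0.033 over the libraries left out. The number of undetected genes was 3 with a floor of 1 or 3 reads and 5 with a floor of 10. Ehf could not be tested with at least 1 CPM in all libraries or without either overexpression library. Of 46 other named genes, 39 kept their direction and their side of the threshold wherever they were tested, 7 lost the call in at least 1 setting and 0 changed direction. The median log2 fold change of all tested genes moved from -0.01 to 0.02 with library size scaling.

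Deviations of same-numbered libraries from their group means correlated at r = -0.0241 across 12510 genes, which are not independent replicates. With 2 libraries per group, this value shows no strong shift shared by same-numbered libraries and cannot tell whether they were paired. With the replicate block 4040 genes were higher and 4337 lower, and Ehf (2.96), Gata3 (0.91), Grhl2 (0.48) and Esr1 (-0.07) kept their calls. Depth limits Foxa1, Elf3, Elf5, Pgr and Ovol1, where 3 reads in a library equal 0.138 to 0.189 CPM.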
